A study of Mus musculus with 39 samples.

Results

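The response to 2 hours of reduced oxygen was compared between liver and spleen in B6C3F1 mice (the first generation from C57BL/6 and C3H parents). The comparison used the 32 liver and spleen arrays of a series of 39, with 8 control and 8 reduced oxygen arrays in each tissue, and took for every gene the change in liver minus the change in spleen. The sample titles call the control arm vehicle and name no substance, and the labels name no transgene or other treatment that sets the groups apart. All mice were killed by cervical dislocation under ketamine (100 mg/kg) and acepromazine (5 mg/kg), so the anaesthetic was shared by every group. The oxygen level, age and sex are not given in the sources used here. The labels do not say whether the samples of a group came from separate mice, nor whether a liver and a spleen of the same number came from 1 mouse. The p-values therefore rest on differences among samples that may be technical replicates.

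Low oxygen stabilises the hypoxia-inducible factors HIF-1 and HIF-2, which bind a short core motif near their target genes and raise glycolytic enzymes, angiogenic factors and regulators of the oxygen sensors themselves. In the whole animal it also acts through the nervous system and the adrenal gland, whose glucocorticoids reach every organ and regulate genes of glucose supply, growth arrest and inflammation. Liver parenchyma consists mainly of hepatocytes, which supply glucose and plasma proteins, whereas the mouse spleen holds lymphocytes, macrophages, stroma and blood-forming cells.

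The markers followed the tissue labels. The mean log2 intensity of 11 hepatocyte markers, among them albumin and apolipoproteins, was 14.34 to 14.52 in the liver arrays and 4.85 to 5.54 in the spleen arrays, and that of 9 B cell markers was 4.88 to 5.35 in liver and 10.13 to 12.05 in spleen. Some spleen arrays stood apart. The 6 pancreatic acinar markers averaged 13.09 in control 5 and 10.65 in reduced oxygen 2 against 6.01 to 6.48 in the other spleens, and reduced oxygen 4 had the lowest B cell mean (10.13) and the highest erythroid mean (11.56). The erythroid mean in spleen controls ran from 8.73 to 11.54 (median 10.33), and in spleens under reduced oxygen from 10.13 to 11.56 (median 10.73). The mean of 11 neutrophil markers was 8.72 to 9.94 (median 9.26) in spleen controls and 8.54 to 11.62 (median 10.71) under reduced oxygen, and in liver 5.08 to 5.36 (median 5.20) and 5.08 to 6.44 (median 5.68). In such bulk samples, fewer cells of a type and less RNA per cell cannot be told apart. No 2 arrays were duplicates, with a highest correlation of 0.9962 between any pair. In liver, but not in spleen, the first principal component, which held 38.3% of the variance, separated replicates 1 to 4 from 5 to 8.

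**Figure D1:**
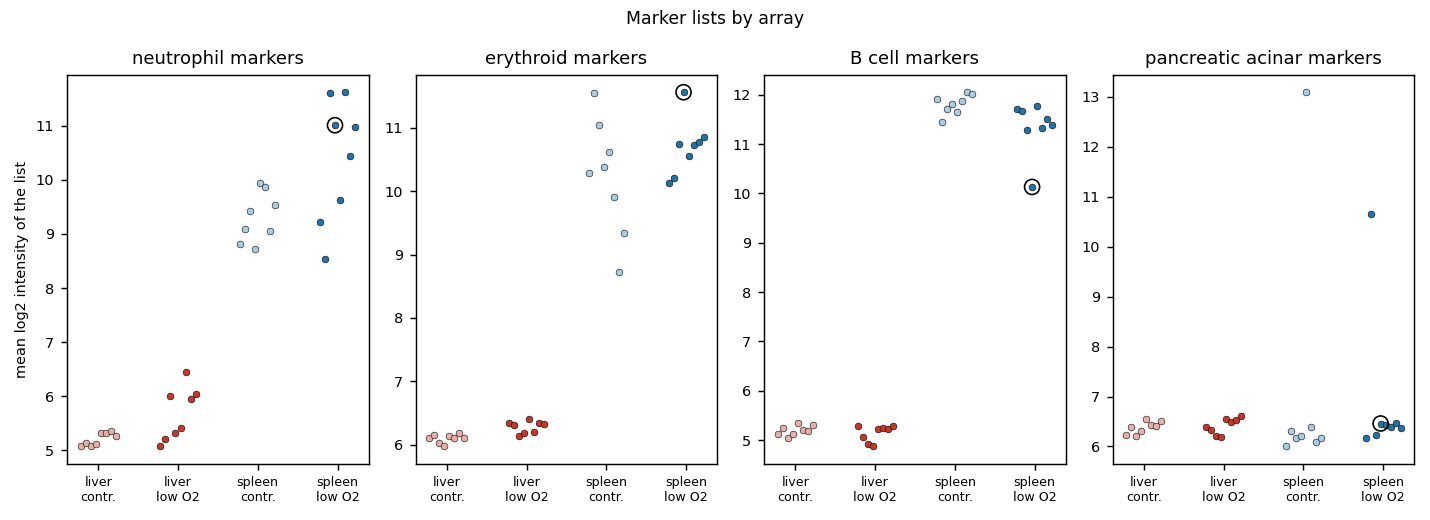
Mean log2 intensity of the neutrophil, erythroid, B cell and pancreatic acinar marker lists (y axes, each with its own range) in each of the 32 arrays, by tissue and condition (x axis; contr., control; low O2, reduced oxygen). Each point is 1 array and the ring marks spleen reduced oxygen 4, which has the lowest B cell mean (10.13). Only spleen control 5 and spleen reduced oxygen 2 lie above 10 for the pancreatic list.

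Of 11325 genes above the filter on dim genes in both tissues, 843 (7.44%) differed between the tissues in their response at an adjusted p under 0.05. The liver minus spleen response was higher for 413 genes (3.65%) and lower for 430 (3.8%). The response itself was called for 1648 genes in liver (14.6%, with 5.16% higher and 9.4% lower) and for 1909 in spleen (16.9%, with 6.43% higher and 10.4% lower). The calls of both tissues shared 523 genes (4.62%), which were 31.7% of the liver calls and 27.4% of the spleen calls. Across all genes tested, which are not independent replicates, the liver and spleen changes had a Pearson r of 0.355, given as a description. The median change of all genes was close to 0 in both tissues, at -0.03 in liver and -0.01 in spleen on the log2 scale. The median standard error of a change was 0.095. It is the same in both tissues by design, because the fit pools the spread of the 4 groups. The median SD within groups was 0.194 in liver and 0.167 in spleen. The count of differing genes was 1545 with the 2 array sets as a term in the fit. It was 316 with replicates 1 to 4 alone and 2016 with replicates 5 to 8 alone, and 243 and 619 of the 843 genes, respectively, were called in those sets, all with the same sign. The 843 genes were picked over arrays that include both sets, so this agreement in sign is no independent support.

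The 843 genes were sorted by their calls in each tissue. For 348 genes (3.07%) only the liver change was called, 160 of them rises (1.41%) and 188 falls (1.66%). For 345 (3.05%) only the spleen change was called, 159 of them rises (1.4%) and 186 falls (1.64%). In 48 genes (0.424%) both changes were called with opposite signs, and in 40 (0.353%) both were called with the same sign but different sizes. The other 62 (0.547%) had a called difference and no called change in either tissue. A missing call is not an absent response, so the 95% interval of the uncalled tissue was also read. That interval lay within 1.5-fold either way for 307 of the 348 liver genes (2.71% of all genes) and for 333 of the 345 spleen genes (2.94%). These genes were picked for lacking a call in that tissue. The counts were therefore largely built in and are no independent support of a small response there. Another 435 genes (3.84%), 96 rising (0.848%) and 339 falling (2.99%), were called in both tissues with the same sign and with no called difference.

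**Figure D2:**
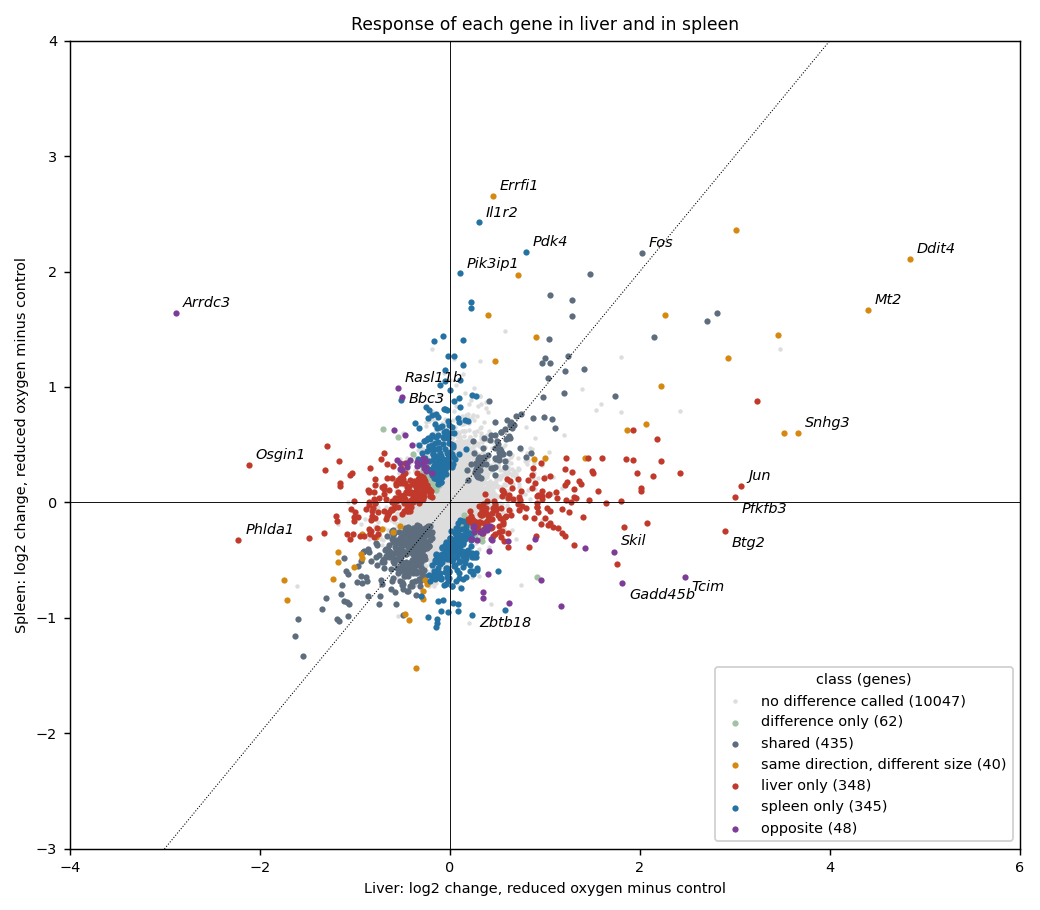
Log2 change from control to reduced oxygen in liver (x axis) and in spleen (y axis) for the 11325 genes tested, 1 point a gene, coloured by class, with equal changes on the dotted line. Arrdc3 lies alone at the upper left (-2.88 in liver, 1.64 in spleen), and the genes called only in liver spread along the x axis to 3.24 (Noct).

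Arrdc3 had the largest opposed response. It encodes an arrestin-domain protein of the Txnip family that directs the endocytosis of membrane receptors. Its log2 intensity was 10.01 to 11.23 (median 10.85) in liver controls and 7.12 to 8.91 (median 7.74) in livers under reduced oxygen. In spleen it was 8.57 to 9.33 (median 8.79) in controls and 10.26 to 10.73 (median 10.52) under reduced oxygen. The groups did not overlap in either tissue, and they moved in opposite directions. Arrdc3 fell 7.37-fold in liver (log2 change -2.88 ± 0.19, SE, n = 8 per group; adjusted p = 1.23e-13) and rose 3.12-fold in spleen (1.64 ± 0.19; adjusted p = 1.35e-07). The responses differed by -4.52 ± 0.27 (adjusted p = 8.35e-14), and by -4.52 within replicates 1 to 4.

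Of the 48 genes, 26 rose in liver and fell in spleen (0.23% of all genes) and 22 did the reverse (0.194%). Tcim, a small regulator of Wnt signalling and transcription, led the first group. Its log2 intensity was 7.67 to 8.71 (median 8.41) in liver controls and 10.53 to 11.00 (median 10.76) under reduced oxygen, and in spleen 8.23 to 8.93 (median 8.57) and 7.61 to 8.39 (median 7.85). The liver groups were apart and the spleen groups overlapped. Tcim changed by 2.47 ± 0.13 in liver and -0.65 ± 0.13 in spleen, with adjusted p = 7.28e-16 and 0.000735. Gadd45b, a stress-induced protein that activates kinases upstream of p38, was at 6.48 to 7.14 (median 6.62) in liver controls and 7.95 to 9.22 (median 8.43) under reduced oxygen. In spleen it was at 8.25 to 8.82 (median 8.71) and 7.26 to 8.09 (median 8.02). Neither pair of groups overlapped. The Gadd45b change was 1.82 ± 0.14 in liver and -0.70 ± 0.14 in spleen (adjusted p = 6.25e-12 and 0.000519), and of its other probe sets 1 gave a difference of 2.64 and the other, a dim one, 0.20 against the 2.51 of the set used.

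Regulators of transcription and mRNA turnover were among the other genes that rose in liver and fell in spleen. Nabp1, which encodes a protein that binds single-stranded DNA, was at 7.43 to 7.81 in liver controls and 8.19 to 9.76 under reduced oxygen, and in spleen at 8.96 to 9.60 and 8.00 to 8.78, with no overlap in either tissue. Its changes were 1.17 ± 0.15 and -0.90 ± 0.15 (adjusted p = 5.45e-07 and 5.37e-05). The other probe sets of Nabp1 gave liver rises of 1.13 to 1.83. Their spleen changes were -0.70, -0.69, -0.58, -0.05 (a set dim in spleen, mean 4.35) and -0.04 (mean 5.86), so some showed almost no fall. Tob2, which recruits the deadenylase that shortens mRNA tails, changed by 0.96 ± 0.13 in liver and -0.67 ± 0.13 in spleen, also with no overlap in either tissue. The set used can match several transcripts, and the 4 other probe sets of Tob2 gave liver and spleen changes of 0.97 and -0.73, 0.56 and -0.39, 0.39 and -0.21, and 0.12 and -0.06. Without sets of that kind the spleen change was -0.21 and not called (adjusted p = 0.197), so Tob2 was then not opposed by its calls. Skil encodes SnoN, a repressor of SMAD proteins. It rose by 1.73 ± 0.13 in liver, where the groups did not overlap, and its spleen change was -0.43 ± 0.13 (adjusted p = 0.0224). Without spleen control 8 or spleen reduced oxygen 4 the spleen change of Skil was -0.39 to -0.36 and not called (adjusted p = 0.0531 to 0.0574). Gja4, which encodes the gap junction protein connexin 37, rose by 1.42 ± 0.14 in liver, and its spleen change of -0.40 ± 0.14 (adjusted p = 0.0462) rested on the full set of arrays. That spleen call was lost when 1 of 16 arrays was left out, namely liver control 2, 7 or 8, liver reduced oxygen 1, 2 or 7, spleen control 1, 3, 4, 7 or 8, or spleen reduced oxygen 3, 4, 6, 7 or 8, with changes of -0.42 to -0.30 and adjusted p of 0.0502 to 0.129, and with the replicate number as a block within tissue (adjusted p = 0.0546). Lurap1l changed by 0.62 ± 0.14 and -0.87 ± 0.14, and its groups overlapped in both tissues. Within replicates 1 to 4 alone, the spleen changes of Tcim (-0.41), Gadd45b (-0.79), Skil (-0.30) and Gja4 (-0.33) and the liver change of Bbc3 (-0.43) were not called, nor was the liver change of Lurap1l (0.35) within replicates 5 to 8 alone.

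In the reverse direction, Rasl11b and Bbc3 followed Arrdc3. Rasl11b, a small Ras-like GTPase, was at 5.98 to 6.78 (median 6.14) in liver controls and 5.38 to 6.06 (median 5.71) under reduced oxygen, with overlap, and at 6.75 to 7.66 (median 7.22) and 7.95 to 8.65 (median 8.21) in spleen, without. Its changes were -0.54 ± 0.12 and 0.99 ± 0.12 (adjusted p = 0.00181 and 4.3e-07). The liver change of Rasl11b was -0.23 and not called in replicates 5 to 8 alone (adjusted p = 0.189). Bbc3 encodes PUMA, a pro-apoptotic protein of the BH3-only class. It was at 7.63 to 8.07 (median 7.93) and 7.05 to 7.76 (median 7.40) in liver, and at 7.42 to 8.12 (median 7.70) and 7.85 to 8.97 (median 8.73) in spleen, with overlap in both tissues. Its changes were -0.50 ± 0.12 and 0.92 ± 0.12 (adjusted p = 0.00386 and 1.75e-06). Id2, an inhibitor of helix-loop-helix factors, changed by -0.59 ± 0.14 and 0.63 ± 0.14, and its 2 other probe sets gave differences of -1.40 and -1.79 beside the -1.22 of the set used. The 22 genes of this direction also held Cebpa, the liver and myeloid transcription factor (-0.51 and 0.28), Eif4ebp2, a repressor of cap-dependent translation (-0.28 and 0.39), and Spred2 and Spry4, inhibitors of the RAS to ERK pathway (differences of -0.76 and -0.57). The 26 genes of the first direction also held Zc3h12a, an endonuclease that degrades inflammatory mRNAs (0.45 and -0.33), Cd55, which protects cells from complement (0.35 and -0.78), Insig2, which holds the sterol sensor in the endoplasmic reticulum (0.41 and -0.42), Ddx5, an RNA helicase (0.34 and -0.27), and Fh1, the fumarase of the citric acid cycle (0.32 and -0.26). Beyond the named leaders these changes were small. The median change of the 26 genes was 0.41 in liver and -0.33 in spleen, and that of the 22 genes was -0.43 and 0.35.

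**Figure D3:**
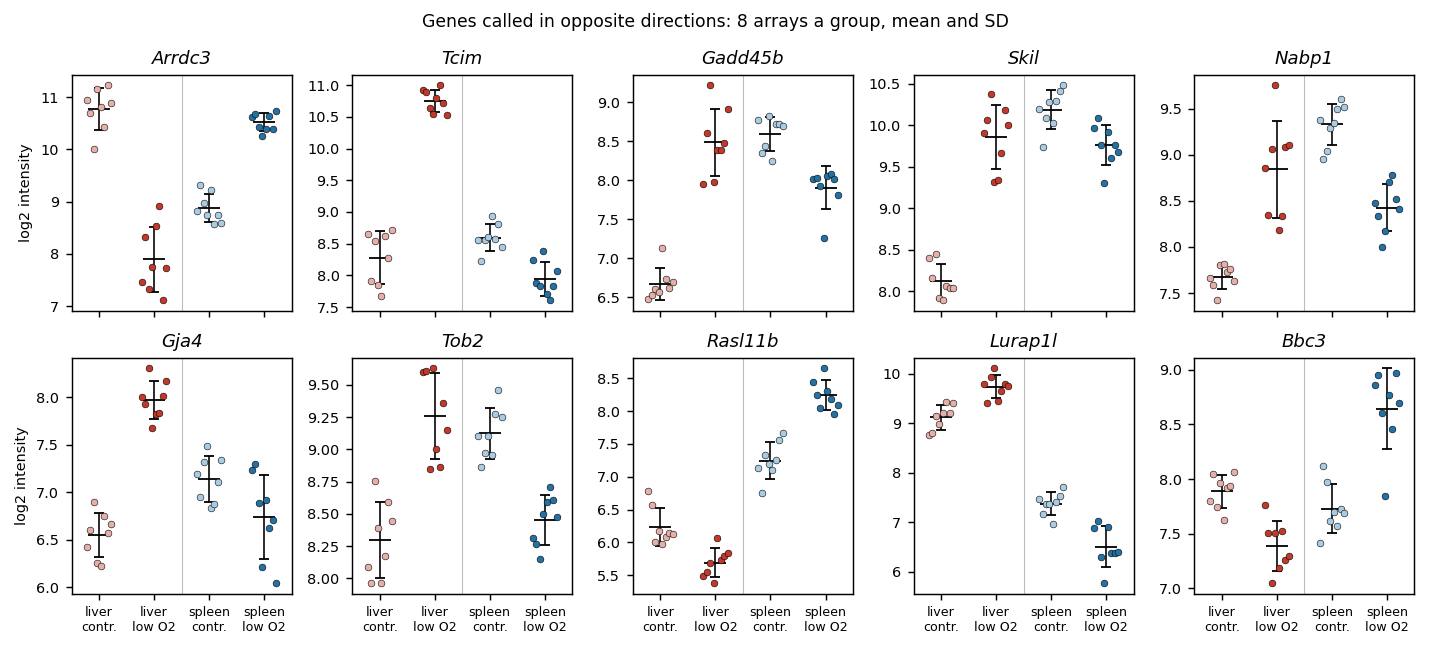
Log2 intensity (y axes, each with its own range) of 10 genes called in opposite directions, in the 4 groups (x axis; contr., control; low O2, reduced oxygen). Points are arrays (8 a group), and the horizontal mark and bar are the mean and SD. In Arrdc3, Gadd45b, Nabp1 and Tob2 the control and reduced oxygen points do not overlap in either tissue.

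The 250 bases upstream of a RefSeq start (build GRCm38.p6) are shown for 2 genes with opposed responses, 1 called in liver only and 1 called in spleen only, because the classes can then be read against the motif content of their promoters. The capitals mark the HIF core ACGTG and the glucocorticoid half-site AGAACA on either strand, and an E-box CACGTG where it contains the core, which it then holds on both strands. Arrdc3 has 3 listed starts, of which this one holds the core, and Pfkfb3 has 2, of which the first is shown.
Arrdc3, chr13:80885845-80886094, plus strand: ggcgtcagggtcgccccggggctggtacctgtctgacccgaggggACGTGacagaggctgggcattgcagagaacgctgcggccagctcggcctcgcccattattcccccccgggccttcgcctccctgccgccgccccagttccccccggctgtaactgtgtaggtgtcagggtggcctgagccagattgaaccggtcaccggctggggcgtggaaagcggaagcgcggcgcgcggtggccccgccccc
Gadd45b, chr10:80929841-80930090, plus strand: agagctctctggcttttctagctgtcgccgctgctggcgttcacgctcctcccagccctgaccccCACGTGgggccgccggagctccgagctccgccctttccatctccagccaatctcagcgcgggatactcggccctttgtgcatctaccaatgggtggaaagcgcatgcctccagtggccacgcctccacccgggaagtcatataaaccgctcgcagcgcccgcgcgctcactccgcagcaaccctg
Pfkfb3, chr2:11553930-11554179, minus strand: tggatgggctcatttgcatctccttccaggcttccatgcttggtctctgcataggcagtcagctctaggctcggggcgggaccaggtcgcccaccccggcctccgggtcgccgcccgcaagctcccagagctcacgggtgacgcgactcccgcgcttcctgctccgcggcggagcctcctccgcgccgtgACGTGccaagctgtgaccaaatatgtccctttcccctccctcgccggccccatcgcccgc
Pik3ip1, chr11:3330481-3330730, plus strand: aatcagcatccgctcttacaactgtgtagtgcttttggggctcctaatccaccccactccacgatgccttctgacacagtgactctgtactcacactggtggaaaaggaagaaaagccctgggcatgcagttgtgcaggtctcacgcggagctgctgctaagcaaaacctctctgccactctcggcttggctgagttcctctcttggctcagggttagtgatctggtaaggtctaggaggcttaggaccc
The window of Arrdc3 holds 1 core and that of Pfkfb3 1, that of Gadd45b holds 1 E-box with the core on both strands, and that of Pik3ip1 holds neither motif. Promoters of 9181 of the 11325 genes tested were matched by symbol, 11743 windows in all, since a gene can have several. The core ACGTG was in 21.4% of these windows and in 16.6% of all 32851 windows of the table. It was in 30.4% of the windows of the genes with opposed responses (17 of 56), in 23.5% and 27.7% of those of the genes that rose or fell in liver only, in 23.7% and 18.0% of those that rose or fell in spleen only, and in 21.8% of those called alike in both. The half-site AGAACA was in 11.0% of the windows of all genes tested, in 10.4% and 13.6% of those that rose or fell in liver only and in 15.6% and 8.47% of those that rose or fell in spleen only. These shares are descriptions of letters in short windows, and no site was tested.

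Among the 160 genes that rose in liver only, Btg2, Pfkfb3 and Jun rose by 7.45-fold to 8.39-fold. Btg2, an antiproliferative partner of the mRNA deadenylase complex, was at 7.18 to 8.17 (median 7.64) in liver controls and 9.49 to 11.69 (median 10.64) under reduced oxygen, and in spleen at 11.28 to 11.81 (median 11.41) and 11.00 to 11.38 (median 11.23). The liver groups were far apart and the spleen groups overlapped. It rose 7.45-fold in liver (2.90 ± 0.19, adjusted p = 1.23e-13) and changed by -0.24 ± 0.19 in spleen (adjusted p = 0.428). Pfkfb3, which makes the strongest allosteric activator of glycolysis and is a known HIF target, was at 5.16 to 6.51 (median 5.64) and 7.85 to 9.97 (median 8.81) in liver. In spleen it was at 7.82 to 8.46 (median 8.07) and 7.42 to 8.44 (median 8.31). The liver groups did not overlap and the spleen groups covered nearly the same range. It rose 8.01-fold in liver (3.00 ± 0.21, adjusted p = 9.88e-13) against a spleen change of 0.04 ± 0.21 (95% interval -0.39 to 0.48). A second probe set gave a difference of 1.12 instead of 2.96. Jun, the AP-1 transcription factor subunit, was at 5.45 to 7.24 (median 5.97) and 8.40 to 9.92 (median 9.20) in liver, without overlap, and at 7.46 to 8.44 (median 8.06) and 7.73 to 8.53 (median 8.19) in spleen, with overlap. It rose 8.39-fold in liver (3.07 ± 0.21) against 0.14 ± 0.21 in spleen, a difference of 2.93 ± 0.29 (adjusted p = 9.69e-09).

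Other rises in liver only included growth arrest, transport and signalling genes. Trp53inp1, a p53-induced stress protein, was at 9.90 to 10.50 (median 10.35) and 12.27 to 13.01 (median 12.76) in liver, without overlap, and at 11.51 to 11.76 and 11.41 to 12.22 in spleen. It rose 5.35-fold in liver (2.42 ± 0.12) against 0.26 ± 0.12 in spleen, where the change became a call, at 0.33 with adjusted p = 0.0438, without spleen reduced oxygen 4. Slc38a2, a carrier of neutral amino acids, rose 3.58-fold in liver (1.84 ± 0.10, adjusted p = 3.26e-16) against -0.21 ± 0.10 in spleen. Rasgef1b, an exchange factor for Ras-like GTPases, rose 4.23-fold (2.08 ± 0.14) against -0.18 ± 0.14. In both genes the liver groups were apart and the spleen groups overlapped. With the probe sets of Slc38a2 averaged, its spleen change was -0.26 and called (adjusted p = 0.0076). Pim3, a serine/threonine kinase, rose 4.04-fold in liver (2.01 ± 0.12) against 0.10 ± 0.12 in spleen, and Il1r1, the signalling receptor of interleukin-1, rose 2.82-fold (1.5 ± 0.15) against 0.27 ± 0.15. The spleen change of Il1r1 was not called (adjusted p = 0.24), although its spleen groups, 8.62 to 8.75 in controls and 8.78 to 9.13 under reduced oxygen, did not overlap. Kdm3a, a histone demethylase and HIF target, rose 2.17-fold in liver (1.12 ± 0.10) against 0.09 ± 0.10 in spleen. The zinc importer Slc39a14 rose 2.27-fold in liver (1.18 ± 0.15) against -0.06 ± 0.15 in spleen, and Usp18, a protease that removes ISG15, rose 1.96-fold (0.97 ± 0.15) against 0.10 ± 0.15. The tyrosine aminotransferase gene Tat, a marker of hepatocytes and a classical glucocorticoid target, was at 12.42 to 13.34 (median 12.61) and 13.61 to 13.95 (median 13.85) in liver. It rose there by 1.05 ± 0.11, without overlap, and was at 5.15 to 5.71 in spleen.

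The spleen changes of Noct, Efna1 and Dusp4, like that of Trp53inp1, became calls when single arrays were left out. Noct, which encodes nocturnin, rose 9.43-fold in liver (3.24 ± 0.34), from 5.25 to 7.42 in controls to 8.81 to 10 under reduced oxygen. Its spleen change was 0.88 ± 0.34 (adjusted p = 0.0771) within wide ranges of 7.23 to 9.92 and 8.12 to 10.74, and it was called, at 1.02 to 1.11 (adjusted p = 0.0136 to 0.0388), without spleen control 2 or spleen reduced oxygen 1. Control 2 had the highest erythroid mean of the spleen controls (11.54). Without it and reduced oxygen 4, the 2 spleens highest in erythroid markers, the spleen change of Noct was 0.89 and called (adjusted p = 0.036), as it was with all 39 arrays in the fit (adjusted p = 0.0493). Efna1, a membrane-bound ligand of Eph receptors, rose 3.38-fold in liver (1.76 ± 0.21). Its spleen change of -0.54 ± 0.21 was called (adjusted p = 0.0315) when liver reduced oxygen 3 was left out and with array weights (adjusted p = 0.0436). Dusp4, a phosphatase that switches off MAP kinases, rose 1.87-fold in liver (0.91 ± 0.11), and its spleen change of -0.29 ± 0.11 became -0.38 (adjusted p = 0.00908) without spleen reduced oxygen 2, an array with raised pancreatic markers. It was called over all arrays with array weights or with the array set as a term (adjusted p = 0.0479 and 0.0485).

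Falls in liver only were led by Osgin1 and Phlda1. Osgin1, an oxidative stress gene of the NRF2 pathway, was at 10.62 to 11.38 (median 11.14) in liver controls and 8.31 to 9.88 (median 8.86) under reduced oxygen, and in spleen at 6.09 to 6.42 (median 6.25) and 6.34 to 6.72 (median 6.59). The liver groups did not overlap. It fell 4.32-fold in liver (-2.11 ± 0.16, adjusted p = 2.07e-12) against 0.33 ± 0.16 in spleen (adjusted p = 0.154). Phlda1, a pleckstrin homology-like domain protein, was at 8.72 to 10.64 (median 10.28) and 7.30 to 8.32 (median 7.81) in liver, without overlap, and it fell 4.67-fold there (-2.22 ± 0.20) against -0.33 ± 0.20 in spleen. Its difference was -1.90 ± 0.28 over all arrays, -2.72 within replicates 1 to 4, and not called within replicates 5 to 8. Fam13a fell 2.24-fold in liver (-1.16 ± 0.18), with overlapping groups, against 0.36 ± 0.18 in spleen. Nuak2, a kinase related to AMPK, fell 2.22-fold (-1.15 ± 0.14) against 0.14 ± 0.14 in spleen, with liver groups apart. Cks2, a subunit of cyclin-dependent kinases, fell 2.49-fold (-1.32 ± 0.20), from 9.24 to 9.78 to 8.06 to 8.35, against 0.28 ± 0.20 in spleen, where its range of 9.76 to 12.05 was wide. Within replicates 1 to 4 the difference of Cks2 was -1.08 and not called.

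Genes of the BH3-only class, whose products start the mitochondrial pathway of apoptosis, were also in this group. Bik was at 7.57 to 8.37 (median 7.98) in liver controls and 6.19 to 7.09 (median 7.01) under reduced oxygen, and in spleen at 5.36 to 5.78 and 5.37 to 6.13. It fell 2.22-fold in liver (-1.15 ± 0.12, adjusted p = 1.42e-08) against 0.17 ± 0.12 in spleen, and its 2 other probe sets gave differences of -2.49 and -1.10 beside -1.32. The spleen values of Bik lay near the spleen filter on dim genes (5.36), so a fall in spleen could be missed. Bmf fell 2.45-fold in liver (-1.29 ± 0.20) against 0.49 ± 0.20 in spleen (adjusted p = 0.0912). Its livers under reduced oxygen, at 3.98 to 4.71, were all below the liver filter on dim genes, so the size of this fall is uncertain. The spleen change of Bmf was called (adjusted p = 0.0206) without liver control 4, whose value of 7.08 stood apart from the other liver controls at 4.85 to 5.64, and its 2 other probe sets gave differences of only -0.42 and -0.11. G0s2, an inhibitor of the main triglyceride lipase, fell 2.05-fold in liver (-1.03 ± 0.28) against 0.25 ± 0.28 in spleen. The difference of G0s2, -1.29 ± 0.39 (adjusted p = 0.0386), lost its call when 1 of 14 arrays was left out, namely liver control 1, 2, 4 or 5, liver reduced oxygen 1, 3, 5 or 6, spleen control 2 or 3, or spleen reduced oxygen 1, 4, 6 or 8, with values of -1.28 to -1.08 and adjusted p of 0.05 to 0.0671, and with the replicate block within tissue (adjusted p = 0.0519).

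The genes that rose in spleen only had neutrophil-associated members and metabolic members. Il1r2, the decoy receptor of interleukin-1, was at 6.15 to 6.97 (median 6.50) in spleen controls and 7.50 to 10.66 (median 9.06) under reduced oxygen, and in liver at 5.19 to 5.80 (median 5.45) and 5.33 to 6.11 (median 5.83). The spleen groups did not overlap. It rose 5.37-fold in spleen (2.42 ± 0.31, adjusted p = 8.41e-07) against 0.31 ± 0.31 in liver. Hp, which encodes haptoglobin, was at 8.04 to 9.23 (median 8.58) and 8.93 to 11.48 (median 10.50) in spleen, with overlap, and at 14.26 to 14.61 and 14.22 to 14.87 in liver. It rose 3.33-fold in spleen (1.73 ± 0.25) against 0.22 ± 0.25 in liver. Hdc, the enzyme that makes histamine, rose 2.72-fold in spleen (1.44 ± 0.27) against -0.07 ± 0.27. The differences of these 3 genes were -2.12, -1.52 and -1.52, and none was called within replicates 1 to 4 alone. Beside them, 4 of the 8 tested neutrophil markers were called higher in spleen and 0 lower (background 6.43% and 10.4% of all genes). Their median change there was 1.00 (median of all genes -0.01). In liver 3 of the 8 were called higher and 0 lower (background 5.16% and 9.4%), with a median change of 0.10. The 3 were the calprotectin genes S100a8 (1.81) and S100a9 (1.39) and the protease gene Prtn3 (1.80). The difference between the tissues was called for 2 of the 8 (background 7.44%). These were Cxcr2, the neutrophil chemokine receptor, and Mmp9, a granule protease, which changed by 0.73 and 1.15 in spleen against -0.23 and -0.05 in liver. The mean of the neutrophil list ran from 8.72 to 9.94 in spleen controls and 8.54 to 11.62 under reduced oxygen, and its part in the result was not tested.

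Pik3ip1, Pex11a and Zfp36l2 rose in spleen with groups that did not overlap. Pik3ip1, an inhibitor of phosphatidylinositol 3-kinase, was at 8.10 to 9 (median 8.72) in spleen controls and 9.60 to 11.24 (median 10.69) under reduced oxygen, and at 4.80 to 5.25 in all livers. It rose 3.95-fold in spleen (1.98 ± 0.15, adjusted p = 2.2e-11) against 0.11 ± 0.15 in liver, near the dim end of the liver range. Pex11a, which divides peroxisomes, was at 6.40 to 6.93 (median 6.76) and 8.01 to 8.84 (median 8.38) in spleen, and at 9.45 to 10 (median 9.59) and 9.64 to 10.45 (median 9.82) in liver. It rose 3.22-fold in spleen (1.69 ± 0.11, adjusted p = 6.28e-13) against 0.22 ± 0.11 in liver. Zfp36l2, which targets AU-rich mRNAs for decay, was at 10.54 to 11.35 (median 11.00) and 11.62 to 12.68 (median 12.46) in spleen, and rose 2.63-fold (1.40 ± 0.19) against -0.16 ± 0.19 in liver. Its difference was -1.56 ± 0.26, and it was not called within replicates 1 to 4 alone. Oasl1, an interferon-induced repressor of translation, rose 1.77-fold in spleen (0.83 ± 0.11), without overlap, against 0.11 ± 0.11 in liver.

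Pdk4 and Tspan33 were at the edge of the threshold. Pdk4, the kinase that switches off pyruvate dehydrogenase, was at 6.53 to 7.68 (median 7.19) and 8.83 to 10.03 (median 9.32) in spleen, without overlap, and at 5.78 to 7.62 (median 6.42) and 5.95 to 8.96 (median 7.43) in liver, with overlap. It rose 4.50-fold in spleen (2.17 ± 0.30) and changed by 0.80 ± 0.30 in liver (adjusted p = 0.0663). The difference of Pdk4, -1.37 ± 0.42 (adjusted p = 0.039), lost its call when 1 of 12 arrays was left out, namely liver control 1, 2 or 5, liver reduced oxygen 4, 6 or 7, spleen control 1, 2, 4 or 5, or spleen reduced oxygen 1 or 3, with values of -1.35 to -1.16 and adjusted p of 0.0512 to 0.0674, and with the replicate block within tissue (adjusted p = 0.0525). The liver rise of Pdk4 was called, at 0.88 to 1.01 with adjusted p of 0.0119 to 0.0483, without liver control 1, 2 or 5 or liver reduced oxygen 4 or 6. Tspan33, a tetraspanin of erythroid and B cells, changed by 0.88 ± 0.30 in spleen and -0.52 ± 0.30 in liver, with overlap in both. Its difference of -1.40 ± 0.43 (adjusted p = 0.0376) was lost without 1 of 12 arrays, namely liver control 2 or 3, liver reduced oxygen 6, 7 or 8, spleen control 6, 7 or 8, or spleen reduced oxygen 3, 4, 7 or 8, with adjusted p of 0.0518 to 0.0677, and with the replicate block within tissue (adjusted p = 0.0512). The spleen call of Tspan33 was lost with that block as well (adjusted p = 0.0526), and, at 0.65 to 0.90 with adjusted p of 0.0515 to 0.119, without spleen control 1, 4, 6, 7 or 8 or spleen reduced oxygen 3, 4, 6, 7 or 8. Without spleen controls 7 and 8, the arrays of lowest erythroid mean, the difference of Tspan33 was -0.95 and not called.

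**Figure D4:**
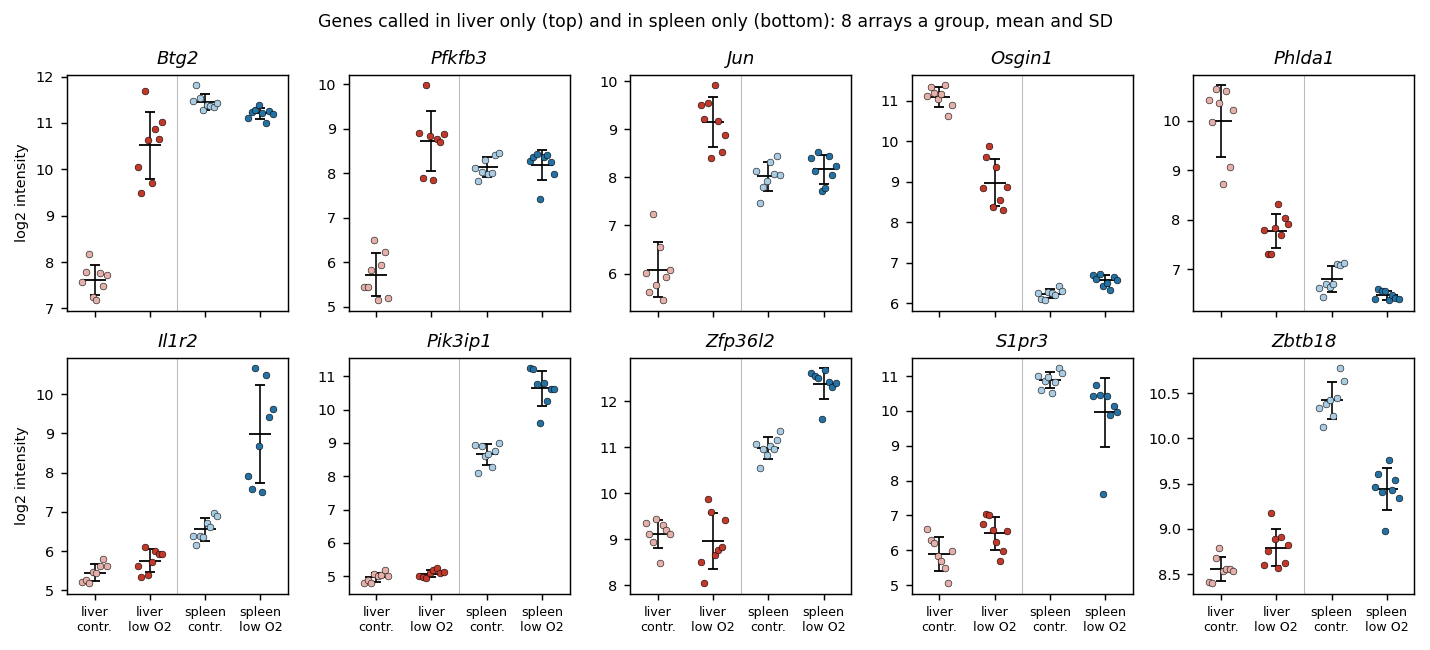
Log2 intensity (y axes, each with its own range) of 5 genes called in liver only (top) and 5 called in spleen only (bottom), in the 4 groups (x axis; contr., control; low O2, reduced oxygen). Points are arrays (8 a group), and the horizontal mark and bar are the mean and SD. Pfkfb3 is at 7.42 to 8.46 in all spleens and Pik3ip1 at 4.80 to 5.25 in all livers, and the S1pr3 point at 7.63 is spleen reduced oxygen 4.

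Falls in spleen only included transcription factors and surface receptors. Zbtb18, a zinc finger repressor, was at 10.13 to 10.77 (median 10.40) in spleen controls and 8.98 to 9.76 (median 9.45) under reduced oxygen, and in liver at 8.40 to 8.79 (median 8.55) and 8.57 to 9.18 (median 8.79). The spleen groups did not overlap. It fell 1.97-fold in spleen (-0.98 ± 0.10, adjusted p = 6.54e-09) against 0.24 ± 0.10 in liver (adjusted p = 0.101). Cebpg, a basic leucine zipper protein that pairs with other C/EBP factors, was at 9.07 to 9.22 (median 9.14) and 7.71 to 8.57 (median 8.06) in spleen, without overlap. It fell 2.12-fold there (-1.08 ± 0.09, adjusted p = 1.14e-10) against -0.14 ± 0.09 in liver, but its 2 other probe sets gave differences of -0.37 and 0.46 beside 0.94. Ffar2, a receptor of short-chain fatty acids, fell 1.93-fold in spleen (-0.95 ± 0.13), without overlap, against -0.02 ± 0.13 in liver. The liver mean of Ffar2 (4.99) was close to the liver filter on dim genes (4.90), so a fall in liver could be missed. Atg16l2, a relative of an autophagy protein, fell 1.93-fold in spleen (-0.94 ± 0.15), also without overlap, against 0.08 ± 0.15 in liver. Ttpal fell 2.06-fold (-1.04 ± 0.14), without overlap, against -0.13 ± 0.14.

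Nfkbie and Bcl3, proteins of the IkB family that bind NF-kB, were called in spleen only, whereas their relatives Nfkbia and Nfkbiz had spleen changes of 0.09 and -0.12 that were not called. Nfkbie was at 9.76 to 10.71 (median 10.32) in spleen controls and 8.04 to 10.06 (median 9.53) under reduced oxygen, with overlap, and at 4.87 to 5.76 in all livers. It fell 1.84-fold in spleen (-0.88 ± 0.18, adjusted p = 0.000611) against 0.08 ± 0.18 in liver. The liver values of Nfkbie began below the liver filter on dim genes (4.90), so a fall in liver could be missed. The difference of Nfkbie, 0.96 ± 0.25, was 0.84 and not called without spleen controls 7 and 8. Bcl3 changed by -0.60 ± 0.20 in spleen (adjusted p = 0.0337) and by 0.50 ± 0.20 in liver (adjusted p = 0.0871), with overlap in both. The spleen call of Bcl3 was lost, at -0.59 to -0.47 with adjusted p of 0.0502 to 0.0934, without spleen control 1, 6, 7 or 8 or spleen reduced oxygen 2, 4 or 8, and its liver rise was called, at 0.58 to 0.61 with adjusted p of 0.0347 to 0.0464, without liver reduced oxygen 5 or 6. Its difference of 1.10 ± 0.28 was kept in each of these fits. S1pr3, a receptor of sphingosine-1-phosphate, was at 10.51 to 11.22 (median 10.92) and 7.63 to 10.75 (median 10.27) in spleen, with the value of 7.63 in reduced oxygen 4. It fell 1.90-fold in spleen (-0.93 ± 0.28, adjusted p = 0.0207) against 0.59 ± 0.28 in liver. Without spleen reduced oxygen 4 the liver rise of S1pr3 was called as well, at 0.59 with adjusted p = 0.0264.

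Among the 40 genes called in both tissues with the same sign but different sizes, the change was larger in liver for 27 (0.238% of all genes) and in spleen for 13 (0.115%). With the replicate block within tissue there were 65 such genes in place of 40. Ddit4 encodes REDD1, an inhibitor of the growth kinase mTORC1 that both HIF and glucocorticoids raise. It was at 5.78 to 7.21 (median 6.76) in liver controls and 10.71 to 12.09 (median 11.60) under reduced oxygen, and in spleen at 9.17 to 10.94 (median 9.86) and 11.37 to 12.30 (median 12.09). Neither pair overlapped. It rose 28.7-fold in liver (4.84 ± 0.22) and 4.31-fold in spleen (2.11 ± 0.22), a difference of 2.73 ± 0.31 (adjusted p = 1.33e-07). Snhg3, a host transcript of small nucleolar RNAs, rose 12.7-fold in liver (3.66 ± 0.16) and 1.52-fold in spleen (0.60 ± 0.16). Mt2, a metal-binding metallothionein, was spread widely in liver controls, at 7.07 to 11.28 (median 8.40), against 12.45 to 13.90 (median 13.55) under reduced oxygen. It rose 21.1-fold in liver (4.40 ± 0.46) and 3.18-fold in spleen (1.67 ± 0.46). Mt2 did not differ by a call within replicates 1 to 4 (1.98). Gadd45g, related to Gadd45b, rose 11.5-fold in liver (3.52 ± 0.19) and 1.52-fold in spleen (0.60 ± 0.19), a spleen call that was lost (0.58, adjusted p = 0.0509) without spleen reduced oxygen 3. Bhlhe40, a repressor of the circadian clock and a HIF target, rose 4.20-fold in liver and 1.61-fold in spleen (2.07 ± 0.22 and 0.68 ± 0.22), and its spleen call too was lost (0.63, adjusted p = 0.0557) without that array.

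Errfi1 was the leading gene with the larger change in spleen. It encodes MIG6, a feedback inhibitor of the epidermal growth factor receptor. It was at 7.56 to 8.83 (median 8.48) in spleen controls and 10.67 to 11.57 (median 10.91) under reduced oxygen, without overlap, and at 12.68 to 13.53 (median 13.00) and 13.46 to 13.62 (median 13.53) in liver, with overlap. It rose 6.30-fold in spleen (2.65 ± 0.15) and 1.37-fold in liver (0.46 ± 0.15, adjusted p = 0.0307). Errfi1 was bright in liver, though below the hepatocyte marker mean of 14.38 to 14.52 under reduced oxygen. Whether its brightness limited the liver rise was not tested. The small liver call of Errfi1 was lost, at 0.40 to 0.43 with adjusted p of 0.0562 to 0.0761, without liver control 1, 2, 4 or 5, and with the replicate block within tissue (adjusted p = 0.0748), while its difference of -2.20 ± 0.21 was kept in every fit. Kcne4, a potassium channel subunit, rose 3.91-fold in spleen (1.97 ± 0.13) and 1.65-fold in liver (0.72 ± 0.13), with no overlap in either. Klf15, a glucocorticoid-induced zinc finger factor, rose 3.08-fold in spleen (1.62 ± 0.13) and 1.32-fold in liver (0.40 ± 0.13, adjusted p = 0.0413). That liver call of Klf15 was lost, at 0.33 to 0.41 with adjusted p of 0.0503 to 0.0976, without liver control 1, 2, 3, 4 or 5 or liver reduced oxygen 1, 4, 6 or 7, and with the replicate block within tissue (adjusted p = 0.0768). Thap2, a zinc finger protein of the THAP family, fell 2.70-fold in spleen (-1.43 ± 0.12) and 1.28-fold in liver (-0.36 ± 0.12), and its liver call was lost (adjusted p = 0.0535 to 0.0752, change -0.35 to -0.30) without liver control 3 or 4 or liver reduced oxygen 1, 5, 7 or 8.

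Among the genes called alike in both tissues, Fos, the AP-1 partner of Jun, rose 4.08-fold in liver and 4.47-fold in spleen. Its log2 intensity was 4.15 to 4.80 (median 4.56) and 5.74 to 7.36 (median 6.50) in liver, and 6.31 to 7.43 (median 6.77) and 8.18 to 9.87 (median 8.84) in spleen. Neither pair overlapped. The difference was -0.13 ± 0.29 (adjusted p = 0.843), whereas its partner Jun differed by 2.93. All liver control values of Fos were below the liver filter on dim genes (log2 4.9). Its liver fold was thus measured from the dim range, and an equal size of the Fos rise in both tissues was not shown. H3f3b, a gene of histone H3.3 with closely related copies that a probe set may not tell apart, rose by 1.48 ± 0.17 and 1.98 ± 0.17. Adm, the vasodilator adrenomedullin, rose 2.32-fold and 2.21-fold (1.22 ± 0.12 and 1.14 ± 0.12), with no overlap in either tissue. Bnip3, a mitophagy receptor, rose by 0.70 ± 0.13 and 0.75 ± 0.13. Fam107a rose by 2.81 ± 0.31 and 1.64 ± 0.31, and its difference of 1.17 ± 0.44 had an adjusted p of 0.1 (0.00808 with the replicate block across tissues). Ankrd37, a HIF target, rose by 2.71 ± 0.27 and 1.57 ± 0.27, and its difference of 1.14 ± 0.38 (adjusted p = 0.0595) was called, at 1.28 to 1.34 with adjusted p of 0.011 to 0.0269, without liver reduced oxygen 1, 2 or 5. The liver controls of Ankrd37, at 4.12 to 4.56, were also all below the liver filter.

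The other textbook hypoxia genes divided over the classes. Vegfa, the vascular growth factor, rose 1.58-fold in liver (0.66 ± 0.11) and changed by 0.29 ± 0.11 in spleen (adjusted p = 0.0786), a difference of 0.37 ± 0.16 that was not called. The spleen change of Vegfa was called (0.35, adjusted p = 0.0393) without spleen control 7, and with the replicate block within tissue or the array set as a term (adjusted p = 0.0259 and 0.0345). The glucose transporter gene Slc2a1 changed by 0.99 ± 0.18 and 0.37 ± 0.18, and its difference of 0.63 ± 0.25 (adjusted p = 0.127) was called, at 0.76 with adjusted p = 0.0306, without liver reduced oxygen 5. The difference of Slc2a1 was also called with the replicate block within tissue, with the array set as a term and in replicates 5 to 8 alone (adjusted p = 0.0407, 0.0459 and 0.044). Egln3, an oxygen sensor that marks HIF for degradation, was at 5.00 to 5.64 (median 5.43) and 5.69 to 7.46 (median 6.37) in spleen, without overlap, and at 7.21 to 7.84 and 7.15 to 8.32 in liver. It rose 2.08-fold in spleen (1.06 ± 0.20) against 0.11 ± 0.20 in liver, but its other probe set gave 0.58 in liver and 0.68 in spleen. The difference of Egln3, -0.94 ± 0.28 (adjusted p = 0.0315), was lost, at -0.86 to -0.80 with adjusted p of 0.0509 to 0.0558, without liver reduced oxygen 7 or spleen reduced oxygen 3 or 6. Angptl4, an inhibitor of lipoprotein lipase, depended on the probe set. The brighter one changed by 0.05 ± 0.12 in liver and 0.13 ± 0.12 in spleen, and the other by 3.28 and 0.85, a difference of 2.43. That other set was dim, with a mean of 4.97 in liver and 3.82 in spleen. The spleen mean was below the spleen filter on dim genes (5.36), so the size of the difference is uncertain. Pdk1, which slows pyruvate use, had changes of 0.18 ± 0.11 and 0.24 ± 0.11, not called in either tissue. Hmox1, the heme-degrading enzyme, changed by 1.08 ± 0.24 and 0.72 ± 0.24, and its spleen call (adjusted p = 0.0337) was lost, at 0.65 to 0.70 with adjusted p of 0.0553 to 0.0736, without spleen control 3, 4, 6, 7 or 8 or spleen reduced oxygen 1, 3, 4 or 8.

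By pathway, the glucocorticoid-responsive genes had the most calls. Of 28 tested genes, 20 rose in liver and 0 fell, 19 rose in spleen and 1 fell (background 5.16% and 9.4% of all genes in liver, and 6.43% and 10.4% in spleen), with medians of 1.23 and 1.22 against all-gene medians of -0.03 and -0.01. The tissues nevertheless differed for 21 of the 28 (background 7.44%), 14 higher in liver and 7 lower. The chaperone gene Fkbp5, the clock gene Per1 and the transcription factor Cebpb rose in both without a called difference, by 1.29, 1.29 and 1.24 in liver and 1.75, 1.62 and 1.27 in spleen. Tsc22d3, which encodes the anti-inflammatory protein GILZ, rose in spleen only (1.41 against 0.14), as did Zbtb16 (1.27 against 0.04), Klf9 (1.19 against 0.14) and Glul, the glutamine synthetase gene (0.48 against 0.03). Nfkbia, the NF-kB inhibitor, rose in liver only (0.56 against 0.09), as did Arrdc2 (1.22 against 0.02). The ion channel kinase gene Sgk1, the phosphatase gene Dusp1 and the cell cycle inhibitor gene Cdkn1a rose in both and more in liver, by 2.23, 3.01 and 2.92 against 1.01, 2.36 and 1.25.

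Of 24 tested HIF target genes, 14 rose in liver (background 5.16% of all genes) and 7 in spleen (6.43%), and 0 fell in either, with medians of 0.56 and 0.26. The response itself differed between the tissues for 6 of the 24 (background 7.44%), 5 higher in liver and 1 lower. Pfkfb3, Kdm3a, Ero1a, an oxidase of protein folding (0.66 against 0.03), and Tfrc, the transferrin receptor gene and an erythroid marker (2.22 against 0.36), rose in liver only. The glycolytic enzyme gene Ldha rose in both (0.46 and 0.30). In the wider glycolysis list of 19 genes, 7 rose in each tissue (background 5.16% in liver and 6.43% in spleen) and 0 fell (9.4% and 10.4%). The response was called higher in liver for 2 of the 19 and lower for 3 (background 3.65% and 3.8%). The isoenzyme gene Pfkfb2 also rose in liver only (0.55 in liver, -0.25 in spleen, difference 0.80 ± 0.18). Its other probe sets gave smaller differences of 0.37, 0.30 and 0.11, with no fall in spleen. Tpi1 and the lactate exporter gene Slc16a3 rose in spleen only (0.46 and 0.71 against 0.17 and -0.02). Pfkl rose by 0.41 in both.

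Immediate early genes, which are switched on within minutes of a stimulus, differed in 7 of 24 cases, all 7 higher in liver. For both lists of this paragraph, 7.44% of all genes tested differed, with 3.65% higher and 3.8% lower in liver. In liver 14 rose and 2 fell (background 5.16% and 9.4% of all genes), and in spleen 4 rose and 1 fell (6.43% and 10.4%). The medians were 0.52 and 0.11. Besides Jun and Btg2, the AP-1 and stress factors Jund (0.71 against -0.01), Atf3 (0.75 against 0.10), Maff (1.86 against 0.37), Klf2 (0.99 against 0.21) and Csrnp1 (0.93 against -0.08) rose in liver only. Fos, Ier3 (2.15 and 1.44) and Klf4 (0.48 and 0.69) rose in both. Of the 11 mRNA decay factors, 7 differed, 6 higher in liver and 1 lower, and their medians had opposite signs (0.16 in liver, -0.24 in spleen). Zfp36, which encodes tristetraprolin, rose in liver only (1.21 against -0.29), whereas its relative Zfp36l2 rose in spleen only. Tob1 fell in spleen only (-0.50 against 0.16), while Tob2 and Zc3h12a went in opposite directions.

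Growth arrest and p53 target genes differed in 10 of 18 cases, 7 higher in liver and 3 lower, although the medians of both tissues were near 0 (0.08 and 0.13). For every list of this paragraph, 7.44% of all genes tested differed, with 3.65% higher and 3.8% lower in liver. The polo-like kinase genes were divided, with Plk3 rising in liver only (2.02 against 0.13) and Plk2 in spleen only (0.81 against -0.06), and Sesn1, a brake on mTORC1, rose in spleen only (1.27 against -0.01). Of 15 MAP kinase phosphatases and feedback inhibitors 7 differed, 2 higher and 5 lower in liver. Dusp4 rose in liver only, while Dusp2 (0.90 against 0.10) and Dusp10 (0.42 against -0.18) rose in spleen only. Most lipid synthesis and lipid oxidation genes changed by less. Exceptions in the oxidation list included Pdk4 (0.80 in liver, 2.17 in spleen) and the dimmer probe set of Angptl4 (3.28 in liver). Beside the counts of the lipid lists stand 5.16% rises and 9.4% falls over all genes in liver, and 6.43% and 10.4% in spleen. Of 20 genes of cholesterol and fatty acid synthesis 5 differed, all higher in liver, with 4 rises and 0 falls in liver and 0 rises and 3 falls in spleen. Sqle rose in liver only (0.62 against 0.06) and Hmgcs1 fell in spleen only (-0.42 against 0.11). Of 15 PPAR-alpha targets 4 differed, all lower in liver, with 0 rises and 5 falls in liver and 2 rises and 0 falls in spleen, among them Hadha, an enzyme of fatty acid oxidation (-0.27 against 0.10). Of the 8 tested genes of gluconeogenesis and amino acid breakdown 3 differed, Tat, Got1 (0.98 against 0.03) and Slc38a2, all risen in liver only.

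**Figure D5:**
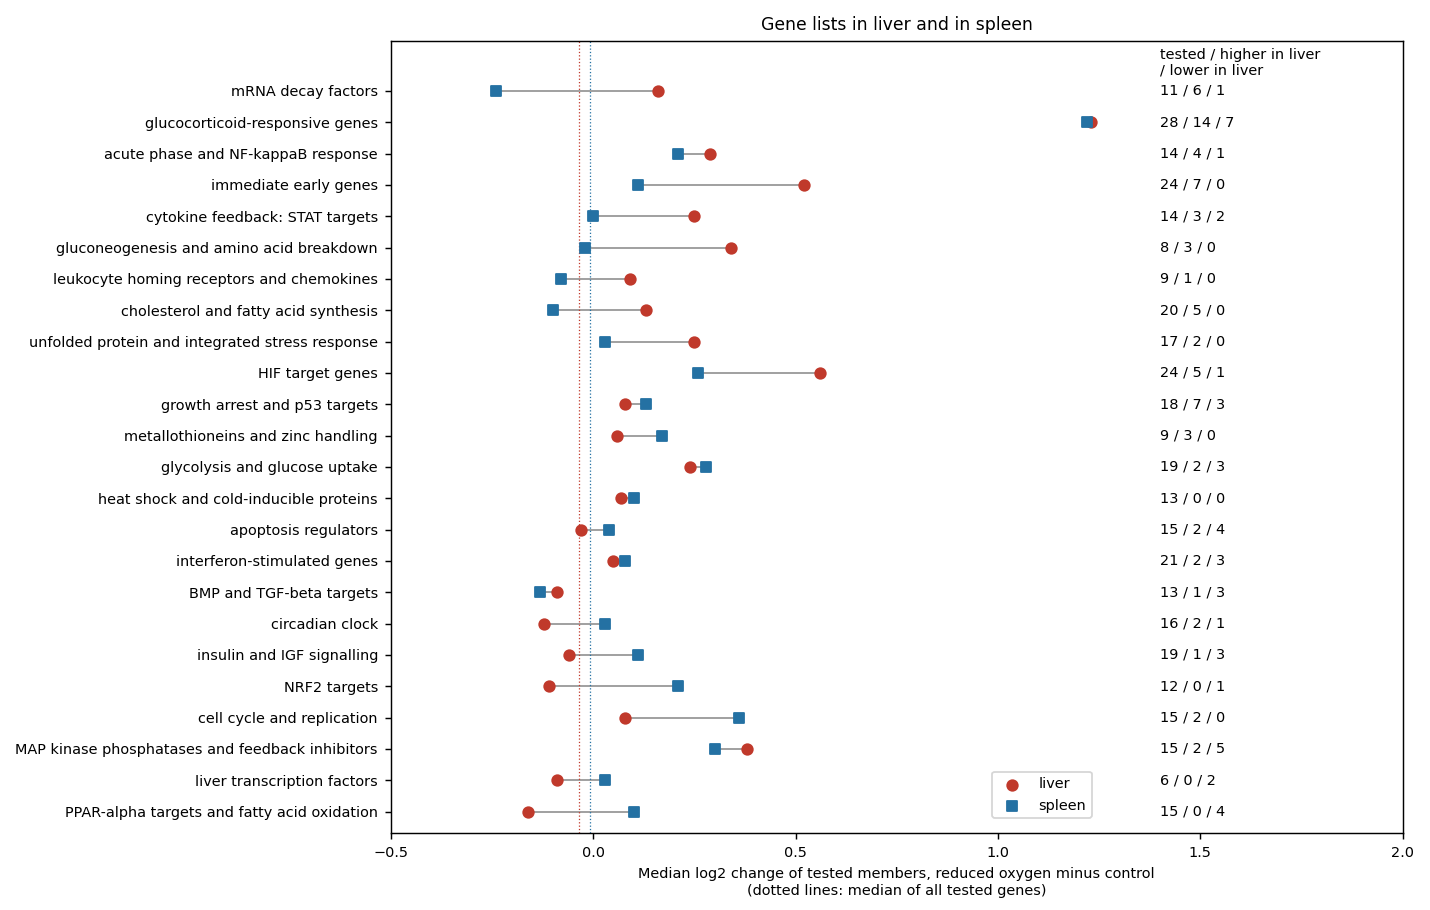
Median log2 change of the tested members of 24 gene lists (y axis) in liver (red circles) and spleen (blue squares), ordered by the median difference, with the all-gene medians as dotted lines (x axis: log2 change). The numbers give the members tested and how many had a called difference, higher or lower in liver: 28, 14 and 7 for the glucocorticoid-responsive genes, and 24, 7 and 0 for the immediate early genes. Over all genes tested, 3.65% were higher and 3.8% lower in liver.

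Genes above the dim filter in 1 tissue alone were not part of the count of 843. Of 1410 such genes of liver, 233 responded there (16.5%, with 4.82% higher and 11.7% lower), and of 1410 of spleen, 370 (26.2%, with 9.22% higher and 17% lower). In a fit of the 14145 genes above the filter in at least 1 tissue, 7.82% differed between the tissues. Igfbp1, a secreted binder of insulin-like growth factors that fasting, glucocorticoids and hypoxia raise, was at 10.36 to 11.72 (median 11.17) in liver controls and 13.85 to 14.28 (median 14.08) under reduced oxygen, and at 3.45 to 4.02 in all spleens. It rose 7.62-fold in liver (2.93 ± 0.14, adjusted p = 5.3e-17). The lipid transporter gene Mfsd2a rose 5.65-fold in liver (2.50 ± 0.25), without overlap. The acute phase gene Orm2 was at 6.65 to 10.19 (median 7.68) and 7.22 to 14.02 (median 11.92) in liver, a change of 2.71 ± 0.76 with overlap. Its difference from spleen, 2.71 over all 32 arrays, was not called (adjusted p = 0.123). The difference was 0.21 within replicates 1 to 4 and 5.21, a call (adjusted p = 0.00775), within replicates 5 to 8. With 1 array left out it was called, at 3.20 to 3.24 with adjusted p of 0.0371 to 0.0424, only without liver reduced oxygen 1 or 2. Orm2 has closely related copies that a probe set may not tell apart.

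In spleen, Pcdh18, a protocadherin, fell 3.50-fold (-1.81 ± 0.11, adjusted p = 1.7e-13), from 6.63 to 7.68 (median 7.19) to 4.95 to 5.83 (median 5.35), without overlap. Its median under reduced oxygen was at the spleen filter on dim genes (5.36), so the size of this fall is uncertain. Neto2, an auxiliary subunit of kainate receptors, was at 5.34 to 6.22 (median 5.84) and 6.93 to 8.80 (median 7.89), and rose 4.27-fold (2.09 ± 0.17), also without overlap. Dnah2, a dynein heavy chain, rose 3.62-fold (1.86 ± 0.14), from 4.54 to 5.40 to 5.96 to 7.39. Most of that control range lies below the spleen filter (5.36), so the size of the rise is uncertain. The other probe set of Dnah2, dim in spleen (mean 3.94), changed by 0.01 there. Mmp8, the neutrophil collagenase, rose 4.45-fold (2.15 ± 0.36), from 5.28 to 6.42 (median 5.85) to 6.10 to 10.16 (median 8.22), with overlap, beside the neutrophil marker list that contains it.

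Of the 86 genes chosen for naming, 73 had a called difference between liver and spleen. In all 73 the difference had the same sign in replicates 1 to 4 alone and in replicates 5 to 8 alone. It was called in the first set for 49, in the second for 67 and in both for 48. In the 32 fits that each left out 1 array, 69 of the 73 kept their call throughout, and the exceptions were G0s2, Tspan33, Pdk4 and Egln3. The 73 genes were picked by their differences over these same arrays. Agreement in sign and kept calls were therefore largely built in and are no independent support. Without spleen controls 7 and 8, the spleen calls of Bcl3, Gadd45g, Gja4, Hmox1, Mt2, S1pr3, Skil, Snhg3 and Tspan33 were lost.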

How the data were processed

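RNA of 32 liver and spleen samples was measured on Affymetrix arrays, 1 per sample. The values deposited by the authors are probe set intensities on a linear scale, and per the submitters' processing notes RMA and limma were used, with versions not given in the sources used here. The arrays of 1 tissue had almost the same quantiles, unlike those of the other, so levels were never tested across tissues, only changes. The array files name no genome build.

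Intensities were converted to log2. Of 45101 probe sets, 34945 had 1 gene symbol in the platform annotation, 932 had several and 9160 had none, beside 64 control probe sets. Of the 34945, 34741 had their gene in the GRCm38.p6 annotation, with 0 symbols changed. Each of 18193 genes was represented by its brightest probe set over both tissues. The 11325 genes at or above the 30th percentile in both tissues (log2 4.90 in liver, 5.36 in spleen) were fitted in 4 groups using two-sided tests of limma 3.58.1 (lmFit and eBayes; R 4.3.3) and the data.table package (version 1.17.8). Contrasts were the change in each tissue and their difference, with Benjamini-Hochberg adjustment over all genes and calls under 0.05. Genes above the filter in 1 tissue only came from a fit of the genes above it in at least 1. Every ± is a standard error and every adjusted p is from limma. The standard error of a change in 1 tissue uses the spread of both tissues together. The number of arrays limits the precision.

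Named genes were the 8 largest differences in each direction of the genes called in 1 tissue, up to 10 opposed, 4 larger in each tissue, 4 alike in both, up to 2 per list with 3 or more called differences, 4 per tissue above the filter in 1 tissue only, and 13 textbook hypoxia genes, passing over predicted genes. Other genes named are members of the gene lists or of the opposed class, chosen after their values were seen. The genes, rules and lists were chosen with earlier results of these data known, so they are no independent support.

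Whether equal numbers pair the arrays was checked by the correlation of deviations from the group means, with pairing taken where every pair was over 0.1. This held in liver between control and reduced oxygen (0.167 to 0.543, 8 of 8) and between liver and spleen under reduced oxygen (0.125 to 0.361, 8 of 8). It did not hold in spleen between control and reduced oxygen (-0.464 to 0.334, 2 of 8) or between liver and spleen controls (4 of 8). The fit stayed without the block, and values with the replicate number as a block stand beside the results whose calls they change. The fit was tested on simulated data for the 11325 genes, with independent normal noise of 1 spread per gene in all groups. A liver-only change was called as a difference for 78% of genes at 1.5-fold and 96% at 2-fold, an opposed one for 100% at both, and 15 of 11125 unchanged genes were called. Opposed genes were classed as opposed for 82% at 1.5-fold and 100% at 2-fold. The median changes of the real opposed genes were below 1.5-fold, a size not simulated. The simulation held no array sets, marker shifts or outlying arrays, so its rates may not hold for these data.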

Additional observations from a re-analysis of the deposited data

Results flagged for a closer look

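The response differed between liver and spleen for 73 of the 86 named genes, by limma's test of the difference (liver change minus spleen change, log2). Among genes called in liver only, the difference was highest in Btg2 at 3.14, Pfkfb3 at 2.96, Jun at 2.93, Noct at 2.36, Efna1 at 2.29, Rasgef1b at 2.26, Trp53inp1 at 2.16, Slc38a2 at 2.05 and Pim3 at 1.91. It was smaller in Slc39a14 at 1.24, Il1r1 at 1.23, Dusp4 at 1.20, Tat at 1.13, Kdm3a at 1.03, Usp18 at 0.87, Pfkfb2 at 0.80 and Dhcr7 at 0.42. The liver call of Dhcr7 was lost without liver control 1, 3, 4, 6, 7 or 8 or liver reduced oxygen 3, 4, 6 or 8 (0.19 to 0.24, adjusted p of 0.0542 to 0.117). It was also lost with the replicate block within tissue (adjusted p = 0.0823), with array weights, with arrays centred on their median, without the dim filter and in each array set alone. It was below 0 in Osgin1 at -2.44, Phlda1 at -1.90, Bmf at -1.78, Cks2 at -1.60, Fam13a at -1.52, Bik at -1.32, Nuak2 at -1.30 and G0s2 at -1.29.

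Among genes called in spleen only, the difference was below 0 in Il1r2 at -2.12, Pik3ip1 at -1.87, Zfp36l2 at -1.56, Hdc at -1.52, Hp at -1.52, Pex11a at -1.47, Tspan33 at -1.40, Pdk4 at -1.37, Egln3 at -0.94, Oasl1 at -0.72 and Acot2 at -0.48. The spleen call of Acot2 was lost without spleen control 2 or 3 or spleen reduced oxygen 8 (0.26 to 0.27, adjusted p of 0.0523 to 0.0614). It was above 0 in S1pr3 at 1.52, Zbtb18 at 1.22, Bcl3 at 1.10, Atg16l2 at 1.03, Nfkbie at 0.96, Cebpg at 0.94, Ffar2 at 0.93 and Ttpal at 0.91.

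Of the opposed genes, the difference was -4.52 in Arrdc3, -1.54 in Rasl11b, -1.42 in Bbc3, -1.22 in Id2 and -0.52 in Per2, and 3.12 in Tcim, 2.51 in Gadd45b, 2.16 in Skil, 2.07 in Nabp1, 1.82 in Gja4, 1.63 in Tob2, 1.49 in Lurap1l and 0.84 in Insig2. The call of Per2 as opposed was marginal. Its liver change (-0.25, adjusted p = 0.0462) lost its call without 1 of 18 arrays, namely liver control 3, 4, 5, 6 or 7, liver reduced oxygen 1, 3, 5, 7 or 8, spleen control 1, 3, 5, 6 or 8, or spleen reduced oxygen 3, 6 or 7, with adjusted p of 0.0501 to 0.12. Its spleen change lost its call without spleen reduced oxygen 4, 5 or 6 (0.23 to 0.25, adjusted p of 0.0524 to 0.0705). Of genes with changes of 1 sign and different sizes, it was 3.06 in Snhg3, 2.92 in Gadd45g, 2.73 in Ddit4, 2.73 in Mt2, 1.39 in Bhlhe40 and 1.08 in Thap2, and -2.20 in Errfi1, -1.25 in Kcne4 and -1.23 in Klf15. It was -0.37 in Acadl, whose changes were called in neither tissue. Of genes above the filter in 1 tissue only, it was 2.85 in Igfbp1, 2.44 in Mfsd2a, 1.67 in Pcdh18, -1.69 in Dnah2, -1.92 in Mmp8 and -2.02 in Neto2.

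In 25 of 344 groups of 8 values (86 genes, 4 groups each), 1 array stood apart from the other 7 by Dixon's criterion, and chance marks about 1 in 20 such groups. Spleen reduced oxygen 4 was that array for 14 genes. It was the lowest in Adm (7.53, the others 8.22 to 8.65), Ankrd37 (7.10), Atg16l2 (6.29), Bbc3 (7.85), Bcl3 (6.81), Ddit4 (11.37), Ffar2 (7.17), Gadd45b (7.26), Nfkbie (8.04), Nuak2 (8.75), Pfkfb3 (7.42), S1pr3 (7.63, the others 9.89 to 10.76) and Zfp36l2 (11.62), and the highest in Pfkfb2 (6.87). Liver reduced oxygen 3 stood apart in Hmox1 (10.12, the others 7.40 to 8.08), Bcl3 (10.04) and Per2 (4.83). Single values stood apart in Acadl (10.33) and Adm (6.93) in spleen control 6, Bmf (7.08) in liver control 4, Gadd45b (7.14) in liver control 5, Bnip3 (9.39) in spleen reduced oxygen 3, Pex11a (10.45) in liver reduced oxygen 4, Snhg3 (8.79) in liver reduced oxygen 6 and Tat (13.61) in liver reduced oxygen 2.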

How the results depend on the processing

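The count of genes with a different response, 843, was within 1.5 times of itself under all settings except the array set as a term (1545), replicates 1 to 4 alone (316) and replicates 5 to 8 alone (2016). With the array set as a term, liver only moved from 348 to 600, spleen only from 345 to 639, opposed from 48 to 98, and same direction with different sizes from 40 to 104. With replicates 1 to 4 alone, the counts were 967 called in liver (from 1648), 740 in spleen (from 1909), 177 liver only, 101 spleen only, 15 opposed, 6 of different sizes and 270 above the filter in 1 tissue only and called there (from 603). With replicates 5 to 8 alone, they were 3414 in spleen, 1111 spleen only and 128 opposed. Quantile normalization within tissue gave 73 opposed and 64 of different sizes, and of all 32 arrays together 76 opposed, 75 of different sizes and 630 spleen only. Centring each array on its median gave 28 opposed. A fit with all 39 arrays gave 64 of different sizes. The replicate number as a block within tissue gave 65 of different sizes and 1140 different responses, and across tissues 1046, and 5 of 16 liver and 1 of 16 spleen arrays correlated best with their own number. Among the named genes, the block within tissue also removed the liver call of Saa2 (2.12, adjusted p = 0.0671) and gave one for Acadl (-0.20, adjusted p = 0.0275), and the blocks changed no call beyond these and those given with the results.

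Chosen after seeing the data, leaving out spleen controls 7 and 8 (lowest erythroid markers) gave 1254 called in spleen, 213 spleen only, 28 opposed, 25 of different sizes and 612 different responses, 585 of them among the 843. Leaving out the 2 spleens with the most pancreatic or erythroid marker signal gave 774 and 969. With 1 array left out, the ranges were 700 (without spleen control 7) to 1066 (without spleen control 2) different responses, 1368 to 1812 in liver, 1525 to 2319 in spleen, 288 to 424 liver only, 267 to 494 spleen only, 33 to 64 opposed, 31 to 51 of different sizes and 546 to 720 in 1 tissue only.

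Signs turned for Angptl4 (difference 1.17 as the mean of its probe sets, 2.43 without x, s and a probe sets), Per2 (liver change 0.15, difference 0.057 with 32 arrays normalized together) and Saa2 (liver change -0.48 in replicates 1 to 4 alone). No other sign of a called value of the 86 genes turned. Dim genes limit the comparison: 4048 genes were below the filter in both tissues. For the moves above, the cause was not tested.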

Other observations

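Further lists held 0 to 6 genes with a different response, beside 7.44% of all genes tested. Of 14 acute phase and NF-kB genes 5 differed, with Nfkbiz rising in liver only (1.41 against -0.12) and Tnf falling in spleen only (-0.40 against -0.06). Of 14 cytokine feedback genes 5 differed, among them Irf1, which fell by 1.23 in liver and by 0.67 in spleen. Of 21 interferon-stimulated genes 5 differed, with Cxcl10, a chemokine, falling in spleen only (-1.01 against -0.14) and Stat2 in liver only (-0.84 against -0.26). Of 15 apoptosis regulators 6 differed, 2 higher and 4 lower in liver. Of 13 BMP and TGF-beta targets 4 differed, and Id3 fell in both (-1.63 and -1.16). Of 9 genes of metallothioneins and zinc handling 3 differed, all higher in liver, and Mt1 rose by 3.45 and 1.45.

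Of 19 genes of insulin and IGF signalling 4 differed, and Irs1 fell (-1.08 and -0.86) while Irs2 rose (0.60 and 0.71) in both tissues. Of 16 circadian clock genes 3 differed, with Ciart rising in liver only (1.38 against 0.16). Of 17 genes of the unfolded protein and integrated stress responses 2 differed, with Chac1 rising in liver only (1.29 against 0.27). Of 12 NRF2 targets 1 differed, of 15 cell cycle genes 2, of 6 liver transcription factors 2 and of 9 homing receptors and chemokines 1. For 13 heat shock and cold-inducible genes limma called 0 differences.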
